A study of Rattus norvegicus with 9 samples.

Results

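A set of 10 genes of excitation-contraction coupling was followed in rat pubococcygeus, a striated pelvic floor muscle. They are the 3 RGK GTPase genes Rrad, Gem and Rem1, the voltage sensor genes Cacna1s, Cacnb1, Cacng1 and Cacna2d1, the adaptor gene Stac3, the release channel gene Ryr1 and the junctophilin gene Jph1. The genes were taken by symbol, 10 of the 30518 rows of the deposited tables, and all 10 passed the filter on low counts. The set was selected on the level of Rrad, which was much lower in the muscle of incontinent rats than in untouched muscle, so the values of Rrad are given as a description with no test, and no member is tested in that comparison.

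RNA sequencing libraries, 9 in all with 3 in each group, came from female Sprague-Dawley rats of unstated age. Stimulated rats had the stress urinary incontinence (SUI) model and, from 1 week later, electrical stimulation of the pelvic floor through the vagina at 50 Hz and 20 mA with pulses of 200 μs, in 30 min sessions on 5 days a week over 2 weeks. SUI rats had the model alone, which combined removal of both ovaries with vaginal distension by an 8 Fr balloon holding 3 mL of saline under a 120 g weight for 4 h. Blank rats were left untouched. The stimulated and SUI groups thus share ovary removal and distension, which cannot be told apart from each other here, and no group analysed here is labelled as having had a simulated operation or stimulation (the SUI libraries carry the name sham in the tables, but their labels give the model). The study put 8 rats in each group, and how the libraries relate to those rats is not given, so the spread between libraries may be partly technical.

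Excitation-contraction coupling turns the electrical signal of a muscle fibre into calcium release. The voltage sensor, an L-type calcium channel in the transverse tubule, is built on the pore protein encoded by Cacna1s and touches the ryanodine receptor RyR1 in the facing membrane of the sarcoplasmic reticulum, which then opens and releases calcium. RGK proteins (named for Rad, Gem and Kir) are small GTPases that bind the beta subunit of high-voltage-activated calcium channels and reduce the calcium current. Rad, the product of Rrad, was found through its level in diabetic human muscle and is abundant in striated muscle.

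Total counts per library ran from 50833480 to 147650284, with a median of 110699836. The fibre genes Acta1, Ckm and Des were high in all 9 libraries, at 16746 to 32045, 5298 to 15433 and 815 to 1790 FPKM (fragments scaled by transcript length and library size). Of 5 heart muscle markers, Nppa and Nppb were listed at 0 in every library. Myl7 and Tnni3 reached at most 0.0209 and 0.304 FPKM, while Myh6 ran from 28.1 to 75.2 FPKM. Blank replicate 1 stood apart, with 32.9% of its counts from the mitochondrial genome against 13.4% to 17.7% elsewhere, and with short genes low. The shortest of 5 equal length classes lay 0.43 log2 units lower there than on average over the libraries. SUI replicate 1 was next, with a median correlation with the other libraries of 0.949 against 0.920 in blank replicate 1 and 0.954 to 0.968 in the other 7. The TMM factors that scale libraries ran from 0.743 in blank replicate 1, which also had the lowest total, to 1.30 in SUI replicate 1. Relative to library totals, this scaling raises values in blank replicate 1 and lowers them in SUI replicate 1. Several fold changes of the members moved when either library was left out, and the values without it are given beside those concerned.

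Rrad lies on chromosome 19 at 354198 to 357417 (plus strand, mRatBN7.2). Its library values were 235, 739 and 641 counts in stimulated muscle, 197, 165 and 81 in SUI muscle, and 434, 1122 and 997 in blank muscle. As CPM (counts scaled by library size and TMM factors), these were 1.79, 5.18 and 4.99 in stimulated, 1.74, 1.49 and 0.832 in SUI, and 11.5, 8.69 and 9.84 in blank libraries. Every SUI library was lower than every blank library, and the stimulated libraries lay between, with replicate 1 next to the highest SUI library and replicates 2 and 3 close to each other.

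**Figure D1:**
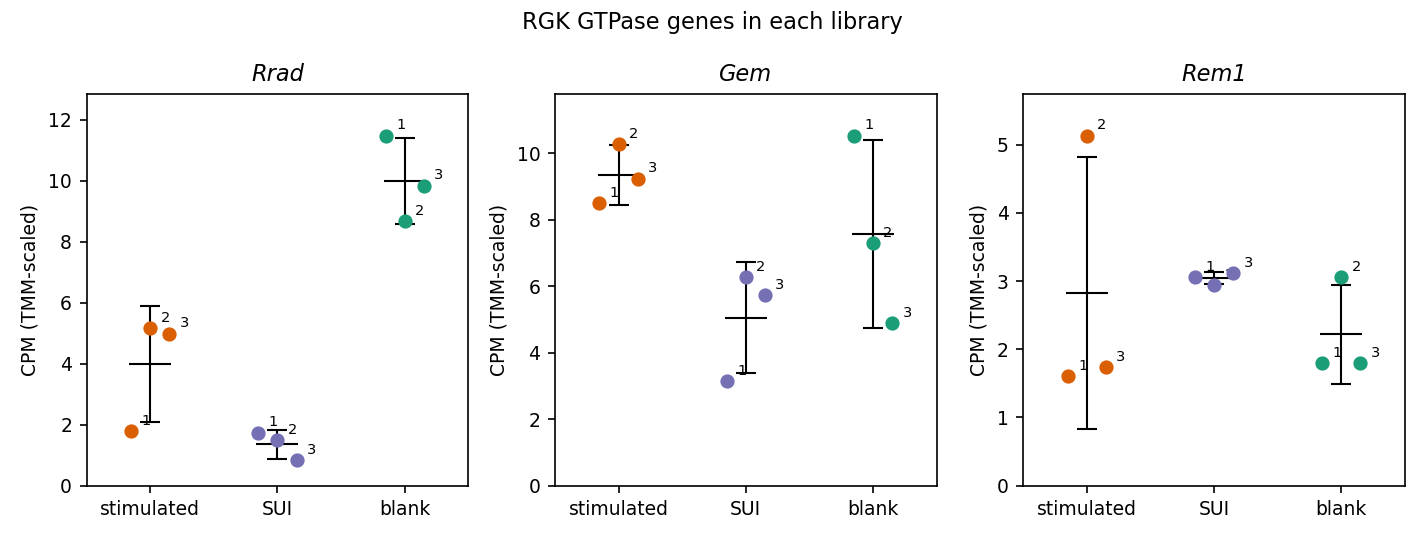
Level of Rrad, Gem and Rem1 in CPM (linear axes from 0), with groups on the horizontal axis. Points are libraries numbered by replicate and bars are the mean ± SD of 3 libraries. Rrad lies between 0.832 and 1.74 CPM in SUI and between 8.69 and 11.5 CPM in blank libraries.

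In SUI against blank muscle Rrad averaged 1.36 ± 0.471 CPM against 10.0 ± 1.41 CPM (SD, n = 3 each), a log2 fold change of -2.88 ± 0.44 (SE), or 7.36-fold lower in SUI. These are the values that led to the choice of the gene. Leaving out each of the 9 libraries in turn gave -3.11 to -2.62, with -2.62 when SUI replicate 3, the lowest library, was left out. Of all 16256 genes tested, 7.77% were lower in every SUI than in every blank library and 7.34% higher. Of the 10 members, 1 was lower (Rrad) and 0 were higher. In whole muscle RNA, fewer cells that express a gene and less RNA per cell cannot be told apart.

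Rrad in stimulated against SUI muscle averaged 3.99 ± 1.90 CPM against 1.36 ± 0.471 CPM, a log2 fold change of 1.55 ± 0.42 (SE), and in stimulated against blank muscle -1.33 ± 0.41. The SUI and blank libraries are the ones that chose the gene, so both are descriptions. Without stimulated replicate 1 the log2 fold change over SUI was 1.90 and that over blank -0.97, and without stimulated replicate 2 they were 1.32 and -1.56. The separation of stimulated from SUI libraries in CPM was narrow, 1.79 CPM in stimulated replicate 1 against 1.74 in SUI replicate 1. All stimulated libraries were below all blank libraries, as were 4.72% of all genes tested. In the authors' FPKM the separation from SUI was absent, at 0.862 in stimulated replicate 1 against 1.23 in SUI replicate 1.

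Gem (chromosome 5, 25214309 to 25225222, plus strand) encodes an RGK protein that also acts on the cytoskeleton. It measured 8.50, 10.3 and 9.24 CPM in stimulated, 3.15, 6.27 and 5.73 CPM in SUI, and 10.5, 7.29 and 4.89 CPM in blank libraries. All stimulated libraries were higher than all SUI libraries, as were 9.53% of all genes tested (9.28% were lower), while the blank libraries spread across both. Blank replicate 1 was the highest of the 9 in CPM. In FPKM it stood at 3.07, below stimulated replicates 2 and 3 at 4.41 and 3.61. Stimulated over SUI had Gem at a log2 fold change of 0.89 ± 0.33 (SE, edgeR unadjusted p = 0.0242, adjusted p = 0.537), which did not pass the threshold of 0.05. That of SUI over blank was -0.58 ± 0.33, but -0.26 without blank replicate 1, -0.34 without SUI replicate 1 and -0.02 without both. Over the alternatives tried, the adjusted p of Gem in stimulated over SUI was 0.134 at the lowest, with voom. Per 100 FPKM of Cacnb1, whose protein it binds, Gem stood at 8.97, 11.3 and 9.18 in stimulated against 6.95, 6.17 and 7.21 in SUI libraries and 7.10, 8.27 and 5.92 in blank libraries, so the stimulated libraries were above all the SUI libraries by this measure as well.

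Rem1 (chromosome 3, 141103766 to 141112203, plus strand), which encodes the RGK protein Rem, was the lowest of the 3 per length in blank muscle. It measured 1.61, 5.14 and 1.74 CPM in stimulated, 3.05, 2.95 and 3.12 CPM in SUI, and 1.80, 3.06 and 1.80 CPM in blank libraries. The high stimulated library was replicate 2, and the stimulated libraries lay on both sides of the SUI libraries. Stimulated over SUI had Rem1 at -0.10 ± 0.45 log2 units (SE, edgeR adjusted p = 0.985), and it turned to 0.18 without stimulated replicate 1 and to 0.15 without stimulated replicate 3. Stimulated replicate 2 also had the highest summed level of endothelial markers (7 of 7 detected in every library), at 60.1, 105 and 61.5 FPKM in stimulated, 80.0, 48.6 and 50.5 FPKM in SUI, and 59.3, 65.0 and 44.0 FPKM in blank libraries. Its fibro-adipogenic progenitor markers (6 of 6 detected in every library) were the highest too, with sums of 139 to 475 FPKM in stimulated, 143 to 316 FPKM in SUI and 169 to 294 FPKM in blank libraries. Macrophage markers (6 of 6 detected in every library) summed to 3.06, 28.8 and 13.7 FPKM in stimulated, 24.6, 10.5 and 5.42 FPKM in SUI, and 10.7, 14.4 and 17.4 FPKM in blank libraries, so stimulated replicate 1 had the least. Smooth muscle markers summed highest in blank replicate 1, at 129 FPKM against 105 FPKM in stimulated replicate 2. That sum rested on Lmod1, at 67.1 FPKM in blank replicate 1 and at most 23.1 FPKM elsewhere. No other smooth muscle marker was highest in that library. Schwann cell markers summed highest in blank replicate 2, at 79.8 FPKM against 63.8 FPKM in stimulated replicate 2. The part of all these cells in the levels of Rrad, Gem and Rem1 was not tested.

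Rem2, the remaining RGK gene, was listed at 0 in 5 of the 9 libraries and at 0.0179 FPKM at most, and did not pass the filter on low counts. The make-up of the other three was compared per length in FPKM. Rrad gave 18.8%, 29.5% and 37.3% of their summed level in stimulated, 25.1%, 16.8% and 10.4% in SUI, and 55.0%, 51.4% and 65.2% in blank libraries. It was the leading RGK transcript in each blank library and in none of the other 6, where Gem led in all but SUI replicate 1 and Rem1 led there. The summed level was 7.35 ± 2.85 FPKM in stimulated, 4.67 ± 0.386 FPKM in SUI and 8.88 ± 0.760 FPKM in blank muscle (SD, n = 3 each). Since Rrad is part of both measures, neither is independent of its choice.

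**Figure D2:**
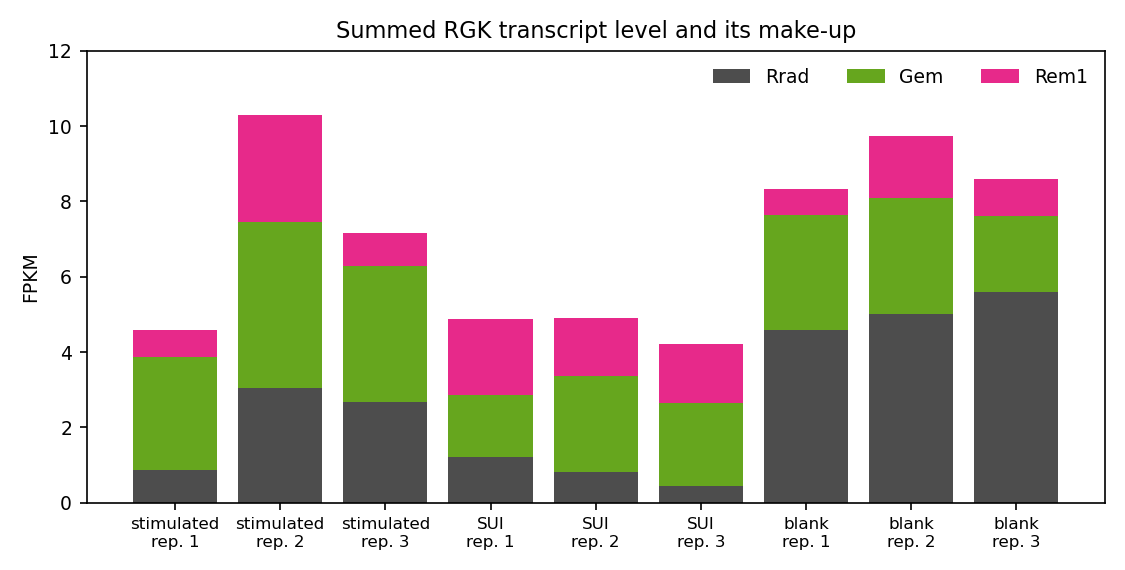
Stacked FPKM of Rrad, Gem and Rem1 in each of the 9 libraries, with libraries on the horizontal axis. Bars sum to 4.22 to 4.90 FPKM in SUI and 8.32 to 9.75 FPKM in blank libraries, and the Rrad segment is the largest of the 3 in the blank libraries and in none of the other 6.

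Relative to Cacnb1, a ratio formed within each library that does not depend on scaling between libraries, Rrad stood at 2.57, 7.79 and 6.78 FPKM per 100 FPKM of Cacnb1 in stimulated, 5.25, 2.00 and 1.42 in SUI, and 10.6, 13.5 and 16.3 in blank libraries. The blank libraries stayed above the other 6 by this measure, while stimulated and SUI libraries overlapped. SUI replicate 1 was the highest of its group, and its Cacnb1, given next, was the lowest of the 9 libraries.

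Among the voltage sensor genes no fold change was as large as those of Rrad. Cacna1s (chromosome 13, 47493949 to 47564318, plus strand), the pore and voltage sensor itself, measured 1062, 778 and 944 CPM in stimulated, 476, 994 and 1106 CPM in SUI, and 845, 927 and 886 CPM in blank libraries. All groups overlapped, and SUI replicate 1 was the lowest. The log2 fold change was -0.05 ± 0.31 (SE) in SUI over blank, 0.11 ± 0.31 (95% interval -0.57 to 0.80) in stimulated over SUI and 0.07 ± 0.31 (-0.62 to 0.75) in stimulated over blank. Without SUI replicate 1 it was 0.23 in SUI over blank and -0.17 in stimulated over SUI. With 3 libraries a group, a shift within these intervals is not excluded.

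Cacnb1 (chromosome 10, 82998182 to 83014742, minus strand) encodes the beta subunit that carries the pore to the tubule membrane and is the docking site of RGK proteins. It measured 150, 145 and 159 CPM in stimulated, 72.2, 162 and 126 CPM in SUI, and 233, 140 and 131 CPM in blank libraries. The extremes were SUI replicate 1 at the low end and blank replicate 1 at the high end, and the other 7 lay between 126 and 162 CPM. SUI over blank gave a log2 fold change of -0.49 ± 0.32, and -0.17 without blank replicate 1. Without blank replicate 1 and SUI replicate 1 together it was 0.09. In stimulated over SUI it was 0.34 ± 0.32 (95% interval -0.37 to 1.05), and 0.09 without SUI replicate 1.

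Cacng1 (chromosome 10, 92652614 to 92665783, minus strand), the gamma subunit of skeletal muscle that restrains the channel, measured 221, 180 and 200 CPM in stimulated, 75.0, 199 and 195 CPM in SUI, and 91.1, 139 and 166 CPM in blank libraries. Every stimulated library was higher than every blank library, as were 7.9% of all genes tested, and the log2 fold change was 0.60 ± 0.37 (edgeR adjusted p = 0.898). This is a short transcript, of 1570 bases by the ratio of counts to FPKM, and the lowest blank library was replicate 1, where short genes were low. Without that library the log2 fold change was 0.37, and after each library was corrected for its trend with gene length it was 0.47. The part of gene length in the difference of Cacng1 was not tested. Cacna2d1 (chromosome 4, 18951002 to 19103347, minus strand), the alpha2delta subunit, ran from 66.4 to 77.3 CPM in stimulated, 53.2 to 92.8 CPM in SUI and 49.0 to 131 CPM in blank libraries, again with blank replicate 1 the highest. Its log2 fold change in SUI over blank was -0.26 ± 0.34, and 0.20 without that library.

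Stac3 (chromosome 7, 63343186 to 63350589, plus strand), an adaptor that the voltage sensor needs to reach the membrane and to act on RyR1, was among the steadiest members. It measured 348, 253 and 307 CPM in stimulated, 247, 288 and 258 CPM in SUI, and 276, 264 and 239 CPM in blank libraries, and SUI replicate 1 did not stand apart from its group. The log2 fold change was 0.19 ± 0.20 in stimulated over SUI (95% interval -0.24 to 0.63) and 0.22 ± 0.20 in stimulated over blank (-0.22 to 0.66).

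Ryr1 (chromosome 1, 84292578 to 84423812, minus strand), the calcium release channel, measured 3794, 3101 and 3608 CPM in stimulated, 2452, 2961 and 3649 CPM in SUI, and 3242, 3209 and 3288 CPM in blank libraries. Its SD within blank muscle was 1.22% of the mean, the smallest of the 10 genes there, against 10.2% in stimulated and 19.9% in SUI muscle. The log2 fold change was 0.21 ± 0.22 (95% interval -0.29 to 0.71) in stimulated over SUI, 0.09 without SUI replicate 1, and 0.11 ± 0.22 (-0.39 to 0.61) in stimulated over blank. Jph1 (chromosome 5, 2030281 to 2125284, plus strand), which tethers the tubule to the reticulum, measured 198, 107 and 136 CPM in stimulated, 148, 198 and 194 CPM in SUI, and 223, 124 and 204 CPM in blank libraries. The groups overlapped in CPM. In FPKM every stimulated library, at 59.4, 38.9 and 45.2, was lower than every SUI library, at 65.1, 68.1 and 64.1, as were 15.9% of all genes tested. The log2 fold change on the count scale was -0.30 ± 0.30 (edgeR adjusted p = 0.869).

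**Figure D3:**
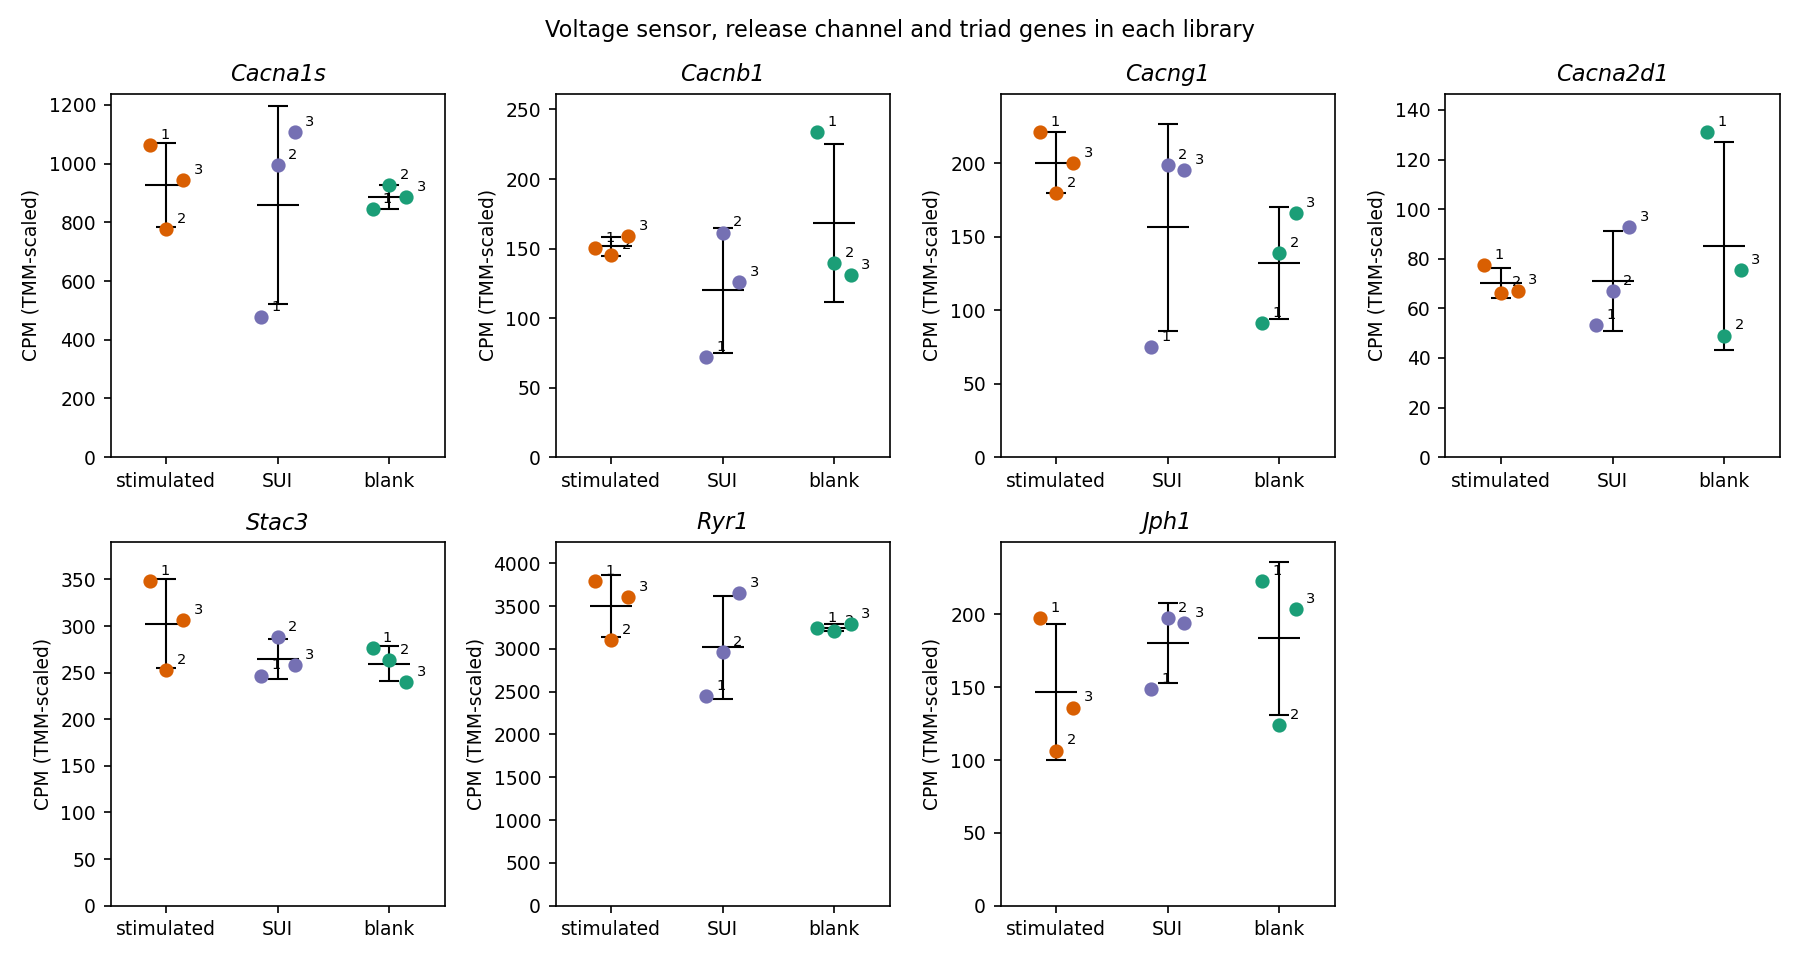
Level of the other 7 genes in CPM (linear axes from 0), with groups on the horizontal axis. Points are libraries numbered by replicate and bars are the mean ± SD of 3 libraries. SUI replicate 1 is the lowest point for Cacna1s, Cacnb1, Cacng1 and Ryr1, at 476, 72.2, 75.0 and 2452 CPM. Blank replicate 1 is the highest for Cacnb1, Cacna2d1 and Jph1, at 233, 131 and 223 CPM.

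Of the 9 members other than Rrad, edgeR's quasi-likelihood test called 0 in stimulated over SUI, where 0.0123% of all genes tested were called, and 0 in stimulated over blank, where 0.00615% were. Without adjustment, 1 of them, Gem, had an edgeR p under 0.05 in stimulated over SUI (8% of all genes tested) and 0 in stimulated over blank (3.77%). DESeq2, which called 1.28% and 0.13% of all genes in these comparisons, and voom with sample weights, which called 0.295% and 0.00615%, also called 0 of the 9 in both. The median log2 fold change of these 9 was -0.05 in SUI over blank, 0.19 in stimulated over SUI and 0.11 in stimulated over blank, beside 0.01, 0.02 and 0.04 for all genes tested. Without SUI replicate 1 the median of the 9 in stimulated over SUI was 0.03, beside 0.04 for all genes, so its distance from all genes rested on that library. In SUI over blank the median was 0.06 without SUI replicate 1, 0.04 without blank replicate 1 and 0.21 without both. Apart from Rrad and Gem, the members stayed within -0.49 to 0.60 in the 3 comparisons. The comparisons share libraries in pairs and are not independent of each other.

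**Figure D4:**
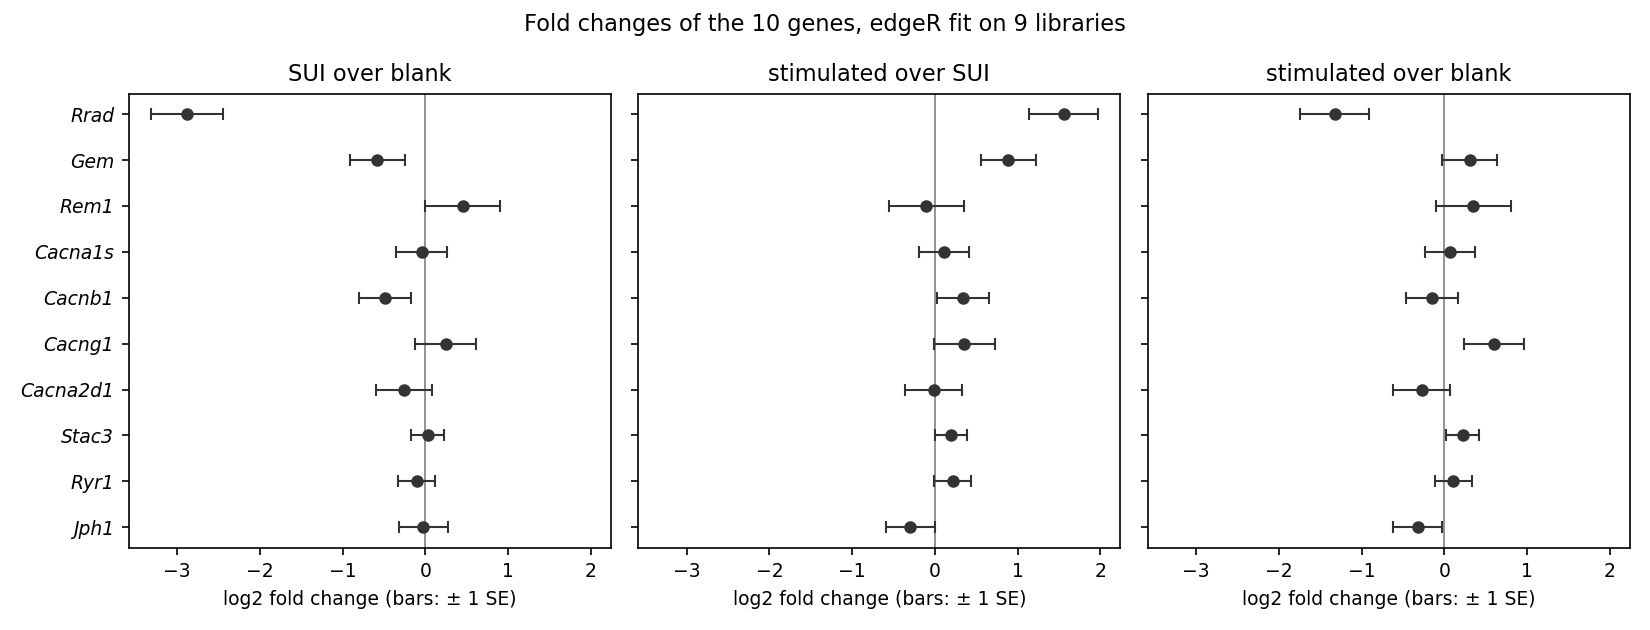
Log2 fold change of each of the 10 genes (rows) in the 3 comparisons (panels), with bars of 1 SE from the edgeR fit on 9 libraries. Rrad stands at -2.88 in SUI over blank, 1.55 in stimulated over SUI and -1.33 in stimulated over blank, and the others lie between -0.58 and 0.89.

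Compared per length, the machinery was far more abundant than its RGK regulators. In blank muscle the order by mean FPKM was Ryr1 (167 ± 32.7), Stac3 (132 ± 20.9), Cacna1s (112 ± 25.9), Cacng1 (82.7 ± 35.7), Jph1 (57.3 ± 13.9), Cacnb1 (38.2 ± 4.55), Cacna2d1 (19.6 ± 5.33), Rrad (5.06 ± 0.513), Gem (2.72 ± 0.601) and Rem1 (1.10 ± 0.509), with SD over 3 libraries. Neighbours from Ryr1 down to Jph1 overlapped between libraries, and from Jph1 downward each gene was separate from the next. In SUI muscle Rrad came last of the 10, at 0.829 ± 0.394 FPKM, below Gem at 2.13 ± 0.465 and Rem1 at 1.71 ± 0.276. In stimulated muscle it came ninth, at 2.19 ± 1.16 FPKM, overlapping both Gem and Rem1.

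Outside the gamma subunits and the junctophilins, the adult skeletal isoforms made up nearly all transcripts of their families in every library. By FPKM, Cacna1s gave 99.5% to 99.9% of the L-type pore transcripts (with Cacna1c and Cacna1d), Cacnb1 96.7% to 99.2% of the beta subunits, Cacna2d1 96.2% to 99.0% of the alpha2delta subunits, Ryr1 99.7% to 99.9% of the ryanodine receptors and Stac3 at least 99.88% of the Stac adaptors. Over the 9 libraries Cacna1c ran from 0.0713 to 0.271 FPKM. Among the minor beta subunits, Cacnb2 ran from 0.148 to 0.370, Cacnb3 from 0.129 to 0.557 and Cacnb4 from 0.0236 to 0.150 FPKM. Ryr3 ran from 0.157 to 0.532, Stac from 0.0315 to 0.104 and Stac2 from 0 to 0.0850 FPKM. Cacng1 shared its family with Cacng6 and gave 87.5% to 91.8% in stimulated, 78.5% to 93.7% in SUI and 80.6% to 89.6% in blank libraries. The junctophilins were mixed, and Jph1 was not the main one except in SUI replicate 1. Jph1 gave 30.4%, 23.9% and 26.0% in stimulated, 62.9%, 40.1% and 26.0% in SUI, and 43.2%, 27.3% and 40.7% in blank libraries. Jph2, which made up almost all of the rest, measured 136, 123 and 128 FPKM in stimulated, 37.8, 101 and 183 FPKM in SUI, and 72.4, 118 and 105 FPKM in blank libraries, so the high Jph1 share of SUI replicate 1 went with a low Jph2.

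Other coupling genes were taken as a list of 51, of which 49 matched a row and 46 passed the filter (Atp2a1 and Pln are not analysed here). edgeR called 0 of the 46 in each of the 3 comparisons. The median log2 fold change was -0.04 in SUI over blank, with 24 lower and 22 higher, 0.18 in stimulated over SUI, with 37 higher and 9 lower, and 0.14 in stimulated over blank, with 28 higher and 18 lower. Of all genes tested, 50.8%, 52.6% and 54.3% were higher in these comparisons. Without SUI replicate 1 the count in stimulated over SUI was 26 higher and 20 lower, with a median of 0.08, and 53.6% of all genes were then higher. That library was the lowest of its group in CPM for 28 of the 46 genes (60.9%), against 38.1% of all genes tested. Scaled by library totals alone, 27 of the 46 were higher in stimulated over SUI (58.7%, against 39.8% of all genes). With log2(FPKM + 1) 26 were (56.5%, against 39.1% of all genes). In stimulated over blank, 37 were higher without blank replicate 1 (80.4%, against 50.2% of all genes). Without adjustment, 5, 1 and 3 of them had an edgeR p under 0.05, where the share of all genes tested was 8.18%, 8% and 3.77%. DESeq2 called 1 in SUI over blank, Sln, beside 1.09% of all genes, and 0 in the others, and voom called 0 in all 3. Groups did not overlap for 13% of the list in SUI over blank, 15.2% in stimulated over SUI and 19.6% in stimulated over blank, beside 15.1%, 18.8% and 12.6% of all genes tested.

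Sln, which encodes sarcolipin, a small inhibitor of the calcium pump of the reticulum, had the smallest p of the list in both comparisons with blank. It measured 6.23, 14.2 and 4.96 CPM in stimulated, 9.79, 9.64 and 3.65 CPM in SUI, and 1.35, 0.836 and 3.19 CPM in blank libraries. Both groups with the model lay above blank, narrowly so for SUI replicate 3. The log2 fold change was 2.10 ± 0.61 in SUI over blank (edgeR adjusted p = 0.504) and 2.24 ± 0.61 in stimulated over blank (edgeR adjusted p = 0.898), and 0.14 ± 0.58 in stimulated over SUI.

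Selenon, a reticulum selenoprotein that supports RyR1, measured 32.7, 38.7 and 30.6 CPM in stimulated, 24.9, 17.3 and 25.6 CPM in SUI, and 18.3, 27.2 and 26.1 CPM in blank libraries. In CPM the stimulated libraries were the highest of the 9. Of all genes tested, 9.53% were higher in every stimulated than in every SUI library, and 7.9% than in every blank library. In FPKM the separation from SUI was absent, at 6.83 in stimulated replicate 1 against 7.59 in SUI replicate 1. The log2 fold changes of Selenon were 0.59 ± 0.23 over SUI (edgeR adjusted p = 0.55) and 0.51 ± 0.23 over blank (edgeR adjusted p = 0.898), neither past the threshold. Cav3, the caveolin of muscle that helps form tubules, also averaged highest in stimulated muscle, at 110 ± 6.46 CPM against 79.5 ± 31.2 CPM in SUI and 70.8 ± 12.4 CPM in blank muscle. Homer1, a scaffold protein, averaged 20.6 ± 4.10 CPM in stimulated, 21.3 ± 1.15 CPM in SUI and 35.5 ± 17.2 CPM in blank muscle, and blank replicate 1 alone reached 55.3 CPM.

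Cacng6 had a log2 fold change of 0.53 ± 0.25 in stimulated over SUI (edgeR adjusted p = 0.646). Cacnb4 averaged 0.559 ± 0.268 CPM in stimulated, 0.252 ± 0.0852 CPM in SUI and 0.762 ± 0.624 CPM in blank muscle. It is a minor beta subunit here, and blank replicate 1 was the highest library, at 1.48 CPM. Every SUI library was below every blank library, as were 7.77% of all genes tested. In CPM every stimulated library was above every SUI library, as were 9.53% of all genes tested, but in FPKM they overlapped. Its log2 fold change was -1.55 ± 0.64 in SUI over blank (edgeR adjusted p = 0.584). In stimulated over SUI it was 1.14 ± 0.63 (edgeR adjusted p = 0.71).

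**Figure D5:**
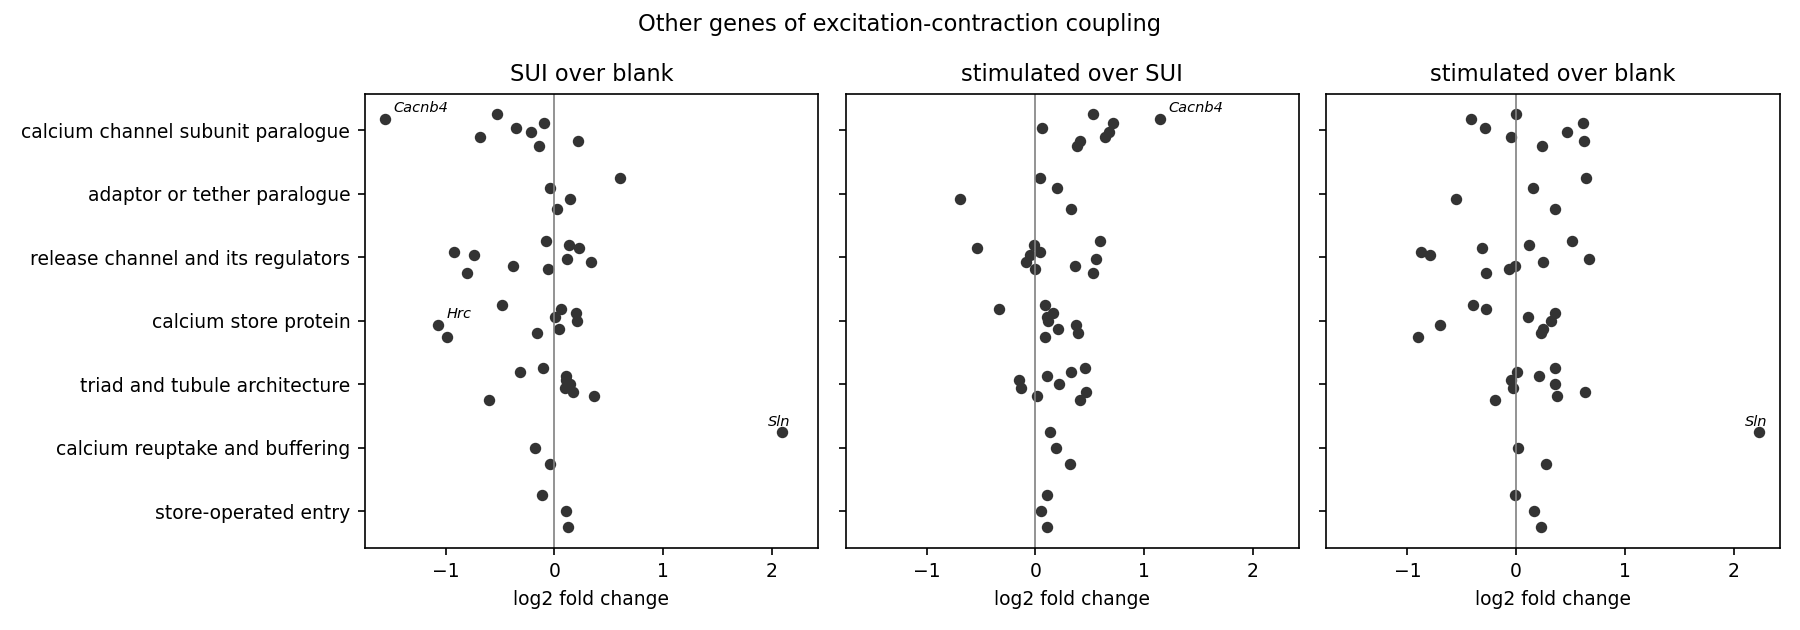
Log2 fold change of the 46 other coupling genes that passed the filter (points, rows by role) in the 3 comparisons (panels), with genes past 1 log2 unit named. Sln stands apart in both comparisons with blank, at 2.10 and 2.24, and 37 of the 46 lie right of 0 in stimulated over SUI (80.4%, against 52.6% of all genes tested), a count that is 26 without SUI replicate 1.

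The 5 genes whose level over the 9 libraries was most like that of Rrad, by Pearson's r of log2 CPM among 11265 named genes with a mean of at least 1 CPM, were Sqle (r = 0.962), Igfbp3 (0.960), Adamtsl3 (0.952), Ogn (0.950) and Adam23 (0.949). Spearman's rank correlation was 0.883, 0.850, 0.867, 0.933 and 0.917 in the same order. They encode a sterol synthesis enzyme, a binding protein of insulin-like growth factors, an ADAMTS-like matrix protein, a matrix proteoglycan and an ADAM-family membrane protein. As the highest of so many, and over libraries that fall into groups, these values describe the pattern and carry no p. Igfbp3 showed the same order of groups at a higher level, with 18.7, 52.0 and 42.9 CPM in stimulated, 20.5, 21.2 and 14.4 CPM in SUI, and 85.6, 92.3 and 51.0 CPM in blank libraries, and stimulated replicate 1 again at the level of SUI libraries. None of the 5 belongs to the coupling list.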

How the data were processed

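RNA was sequenced from pubococcygeus samples, 3 stimulated, 3 SUI and 3 blank, grouped and numbered by their titles (the SUI group is named sham in the library names). Per the submitters' processing notes, the build was mRatBN7.2 and the tools, named with no role, include DESeq2 1.4.5, RSEM 1.3.1 and Bowtie2. Whether strand was used in counting is unstated, and no other row of the tables overlaps any of the 10 genes. The authors deposited expected counts as whole numbers, used as they stand, and FPKM values, used to compare levels between genes, for ratios within a library and for gene lengths. Repeated symbols were resolved to the row of highest mean count.

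Counts were filtered with filterByExpr (16256 of 30518 rows), scaled by TMM and tested with edgeR 4.0.16 in R 4.3.3 (robust quasi-likelihood F test, all 9 libraries in one fit, Benjamini-Hochberg adjustment over all genes, threshold 0.05). The SE of a log2 fold change is its size over the square root of F, and 95% intervals use the fit's degrees of freedom. DESeq2 1.42.0 and limma 3.58.1 gave alternatives. The edgeR and DESeq2 steps were tested on simulated data. A level of 3 counts corresponds to 0.0210 to 0.0794 CPM, which covers counting error only.

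The members and lists were chosen with earlier results of these data known. The text names all members, the 4 other coupling genes with the smallest p in each comparison, the paralogues Rem2, Cacna1c, Cacnb2, Cacnb3, Cacnb4, Ryr3, Jph2, Stac and Stac2, and the 5 genes most like Rrad. Of the genes this rule takes, 1 is not reported here.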

Additional observations from a re-analysis of the deposited data

How the results depend on the processing

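The 35 results (the 10 genes in 3 comparisons, and counts of calls) were recomputed under 21 alternatives. None of the other 9 genes was called in stimulated over SUI or over blank under any of them. Rrad kept its direction in all 3 comparisons, moving by more than the spread between replicates only with log2(FPKM + 1), to -1.75 in SUI over blank and 0.75 in stimulated over SUI, where the pseudocount is close to the level of the gene. Leaving out 1 library gave -3.11 to -2.62, 1.30 to 1.90 and -1.56 to -0.97 for Rrad in SUI over blank, stimulated over SUI and stimulated over blank.

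Small changes of other members turned direction or moved under single alternatives, and the cause was not tested. In SUI over blank, without blank replicate 1, without SUI replicate 1 and without both, Cacna2d1 was 0.20, -0.10 and 0.36, Gem -0.26, -0.34 and -0.02, Cacna1s -0.07, 0.23 and 0.21, and Cacnb1 -0.17, -0.24 and 0.09. Stac3 was 0.22 with library totals, 0.24 with log2(FPKM + 1) and 0.25 with log2(FPKM + 0.1). In stimulated over SUI, Rem1 ranged from -0.86 to 0.18 when 1 library was left out (0.18 without stimulated replicate 1, 0.15 without stimulated replicate 3). Cacna1s was -0.030 with voom, -0.17 without SUI replicate 1 and -0.18 when blank replicate 1 was left out as well (leave-one-out range -0.17 to 0.34). Cacna2d1 was 0.0025 when genes under a mean CPM of 1 were removed, 0.23 without SUI replicate 3, 0.03 without stimulated replicate 2 and 0.02 without stimulated replicate 3 (leave-one-out range -0.18 to 0.23). In stimulated over blank, Rem1 was -0.29 with voom and -0.41 without stimulated replicate 2 (leave-one-out range -0.41 to 0.66), and Cacna1s was -0.040 without stimulated replicate 1 (range -0.040 to 0.18). Cacnb1 was 0.16 with voom, 0.15 without blank replicate 1 and 0.16 without that library and SUI replicate 1 (range -0.30 to 0.15). Cacna2d1 was 0.13, 0.16 and 0.18 in the same 3 cases (range -0.55 to 0.16).

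Over all genes edgeR called 0, 2 and 1 in SUI over blank, stimulated over SUI and stimulated over blank, with 1329, 1300 and 613 at an unadjusted p under 0.05. DESeq2 called 176, 208 and 21, and voom with sample weights 0, 48 and 1. In stimulated over SUI, library totals gave 1, the 6 libraries compared 0, FPKM with either pseudocount 0, and the pair of libraries left out 0. In stimulated over blank, the 6 libraries, log2(FPKM + 1) and the pair left out each gave 0. Leaving out 1 library gave 0 to 1, 0 to 3 and 0 to 1. With library totals only, the median of all genes moved to 0.19, -0.11 and 0.09, while the text uses the TMM scale. With the replicate block, calls were 0, 1 and 0. Same-numbered libraries' deviations correlated at -0.22 to 0.11, so the numbers were not taken to pair the libraries, and Rrad under the block stood at -2.89, 1.54 and -1.35. At 3 libraries a group, differences within the intervals given are not excluded.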
